A study of Rattus norvegicus with 6 samples.

Results

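The microRNA (miRNA) hairpins miR-124, miR-128, miR-129, miR-137 and miR-138, all typical of neurons, were followed in the rat hypothalamic arcuate nucleus (ARC). Members were taken by name alone, as every listed mature miRNA of these hairpins including the numbered copies of miR-129 and miR-138, whichever arm it comes from. This gave 11 of the 562 mature miRNAs listed: 5 guides, the arms mainly loaded into Argonaute (rno-miR-124-3p, rno-miR-128-3p, rno-miR-129-5p, rno-miR-137-3p and rno-miR-138-5p), and 6 other arms (rno-miR-124-5p, rno-miR-129-1-3p, rno-miR-129-2-3p, rno-miR-137-5p, rno-miR-138-1-3p and rno-miR-138-2-3p). The 5p arms of the numbered miR-128 hairpins, miR-128-1-5p and miR-128-2-5p, are 2 further entries outside this rule and were used only for the arm ratio of miR-128.

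The study asked which miRNAs of the ARC change in trigeminal neuropathic pain. Sprague-Dawley rats 8 to 10 weeks old, male where the methods name no other sex, had silk ligatures tied loosely around the left infraorbital nerve (chronic constriction injury, CCI-ION) or had the nerve exposed without ligation (sham), and ARC tissue was collected on Day 14 after surgery. Small RNA of 3 sham and 3 CCI-ION libraries was sequenced, and no genotype or drug differed between the groups. The study's heatmap of raised ARC miRNAs counts more rats per group than there are libraries, without saying how rats map to libraries. Nothing in the sample labels shows whether each library is 1 rat or how the left and right ARC were combined. P-values therefore measure only the spread between these libraries, which may be technical.

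A miRNA guide directs Argonaute to messenger RNAs that pair with its seed, bases 2 to 8, and lowers their stability and translation. miR-124 is a hallmark of neurons and represses Ptbp1, a splicing repressor of non-neuronal cells, while miR-128 damps neuronal excitability and miR-129-5p is known for controlling ion channel and synaptic transcripts in excitability and synaptic scaling. miR-137 acts in neuronal maturation and synaptic vesicle release, and miR-138-5p limits dendritic spine growth by repressing Lypla1, a depalmitoylating enzyme. The ARC holds the neurons that make beta-endorphin as well as feeding-related neurons, beside glia and vessels that the tissue sample also contains.

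RefSeq sequences (assembly GRCr8) were matched to 9 of the 11 members. The mature sequences of the guides are shown because their seeds define which messenger RNAs each can pair with, and capitals mark the seed, bases 2 to 8 from the 5′ end.
rno-miR-128-3p: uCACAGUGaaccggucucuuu
rno-miR-129-5p: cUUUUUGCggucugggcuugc
rno-miR-138-5p: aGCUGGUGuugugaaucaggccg
rno-miR-137-3p: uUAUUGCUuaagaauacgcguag

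These 4 guides had 4 different seeds, and each seed was found in 0 other listed miRNAs among the 511 of 562 with a sequence. miR-128-3p shared a run of 8 bases, ucacagug, with miR-27a-3p and miR-27b-3p, which began at base 1 of miR-128-3p and at base 2 of both miR-27 members, so the seeds are offset by 1 base. Base composition differed widely: GC content was 57.1% in miR-129-5p, 56.5% in miR-138-5p, 47.6% in miR-128-3p and 34.8% in miR-137-3p, against a median of 47.8% over the listed miRNAs. The other arms are shown because near-identical copies limit which gene a read can be given to.
rno-miR-129-1-3p: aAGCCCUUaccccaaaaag
rno-miR-129-2-3p: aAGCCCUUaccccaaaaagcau
rno-miR-138-1-3p: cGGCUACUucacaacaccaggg
rno-miR-138-2-3p: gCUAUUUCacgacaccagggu
rno-miR-137-5p: aCGGGUAUucuuggguggauaa

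miR-129-1-3p, 19 bases long, equalled the first 19 bases of miR-129-2-3p, which is 22 bases long, and both had the seed AGCCCUU. The 3p arms of miR-138-1 and miR-138-2 differed in their seeds and had a longest shared run of 9 bases. By gene name, RefSeq lists 3 copies of miR-124, 2 of miR-128, 2 of miR-129, 1 of miR-137 and 2 of miR-138. Mir128-1 lies within the interval of R3hdm1, Mir128-2 within that of Arpp21, which encodes a phosphoprotein regulated by cyclic AMP, and Mir138-2 within that of Slc12a3. The guides of the copies of 1 family are listed once, so their values cannot be split between these genes.

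The values deposited for each library are normalized counts, which the values themselves show to be reads over one size factor per library. Multiplied back they summed to between 11115049 and 14313839 reads in the sham libraries and between 8628309 and 11297551 reads in the CCI-ION libraries. These read numbers take 1 step of a library's values as 1 read, which the sources used here do not state. The smallest value above 0 was worth 5 reads, and all 11 members were above 0 in all 6 libraries and passed the filter of a mean of at least 1. Log2(normalized count + 1) was compared with limma, two-sided, with Benjamini-Hochberg adjustment over the 555 miRNAs tested and a threshold of 0.05 on the adjusted p, and every fold change given is on this scale. Values are means ± SD over n = 3 libraries per group. With 3 against 3 libraries, an exact permutation test of 1 miRNA cannot give a two-sided p below 0.1, the value of every member whose groups did not overlap.

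Of the 5 guides, 1 changed past the threshold: miR-124-3p fell in CCI-ION rats, to 0.581 of its sham mean. miR-128-3p was at 0.525 of its sham mean and miR-129-5p at 1.37 times its sham mean, both without overlap between the groups and both with adjusted p above the threshold. miR-138-5p lay lower without overlap, and the groups overlapped for miR-137-3p. The guides therefore did not share a direction: miR-129-5p lay higher in CCI-ION libraries, whereas the others had lower means.

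**Figure D1:**
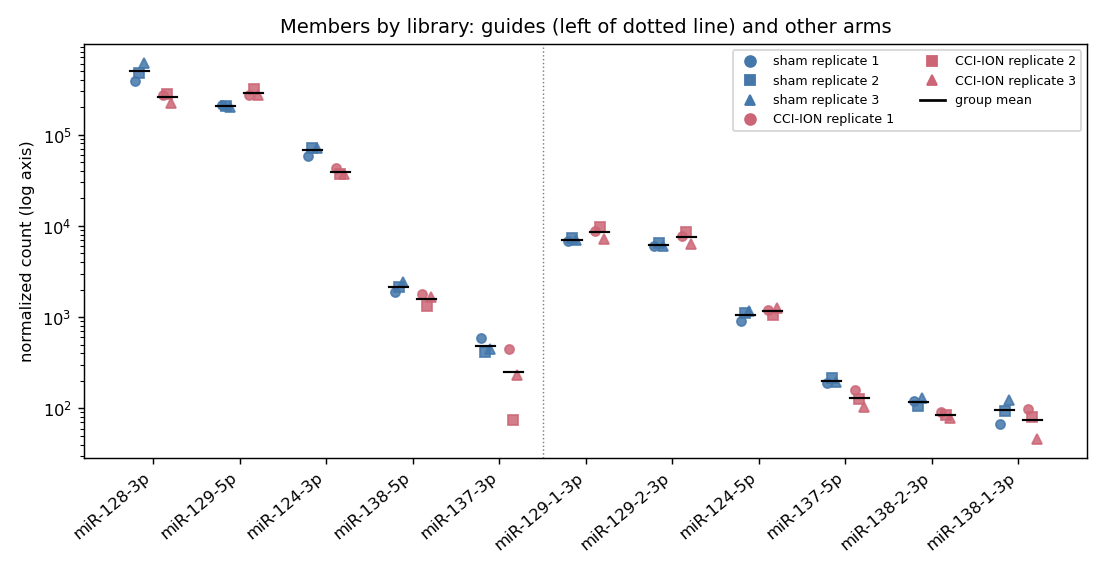
Normalized counts (log axis) of the 11 members in each of the 3 sham and 3 CCI-ION libraries. Points are libraries, bars group means; the CCI-ION points of miR-124-3p and miR-128-3p lie below all sham points and those of miR-129-5p lie above, while miR-137-3p of CCI-ION replicate 2 lies at 74.3.

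Over the 11 members, 1 passed the threshold (miR-124-3p, lower), where 6.85% of the 555 miRNAs tested passed it in either direction and 3.42% passed it as lower. Non-overlap was common in these data, at 40.7% of all miRNAs tested, 21.3% as lower and 19.5% as higher. Among the members the groups did not overlap for 6, of which 5 were lower (miR-128-3p, miR-124-3p, miR-138-5p, miR-137-5p and miR-138-2-3p) and 1 higher (miR-129-5p). The median log2 fold change was -0.45 over the 11 members, -0.78 over the 5 guides and -0.10 over the 6 other arms, beside -0.01 over all miRNAs tested. An unadjusted p under 0.05 was found for 6 of the 11 members and for 183 of the 555 miRNAs. In tissue RNA, fewer cells of a type and less RNA per cell cannot be told apart.

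miR-124-3p, the guide of the miR-124 hairpin, had normalized counts of 58265, 71266 and 71421 in sham replicates 1, 2 and 3. The CCI-ION libraries had 43263, 36815 and 36746, in the same order of replicates. Every CCI-ION library lay below every sham library, and the means were 66984 ± 7552 and 38941 ± 3743. The log2 fold change was -0.78 with a standard error of 0.14 and an adjusted p of 0.0435 in limma. This call rests on all 6 libraries: it was lost when any 1 of them was left out, with limma adjusted p from 0.0522 to 0.148 and log2 fold changes from -0.88 to -0.73. It was also lost with scaling to library totals, with a log2 fold change of -0.58 and a limma adjusted p of 0.0788.

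miR-128-3p was the most abundant member, seventh of all 562 listed miRNAs by mean. Its normalized counts were 388089, 474451 and 611164 in the sham libraries and 273766, 279234 and 221285 in the CCI-ION libraries. The groups did not overlap, and the relative spread within the sham libraries was the widest of the 5 guides, with a coefficient of variation of 22.9%. The means were 491235 ± 112480 and 258095 ± 31996. The log2 fold change was -0.91 with a standard error of 0.21, and the adjusted p in limma was 0.0597. As a share of all reads miR-128-3p went from a mean of 4.10% in sham to 2.47% in CCI-ION libraries. It passed the threshold with upper-quartile scaling (limma adjusted p = 0.0287) and in 3 further alternatives. Its direction was the same in all 16 alternatives, some of which cannot change the fold change.

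miR-129-5p was the one guide with higher counts in CCI-ION rats. Its normalized counts were 211908, 207785 and 200122 in the sham libraries, the tightest set of any guide with a coefficient of variation of 2.89%. In the CCI-ION libraries they were 268800, 312949 and 267822. All CCI-ION libraries lay above all sham libraries, with means of 206605 ± 5981 and 283191 ± 25777. The log2 fold change was 0.45 with a standard error of 0.12 and a limma adjusted p of 0.0762, which is above the threshold. Its size depended on the scaling: 0.65 with library totals, which put it past the threshold with a limma adjusted p of 0.0356, and 0.20 with upper quartiles, with an adjusted p of 0.216. These scalings moved the median of all miRNAs to 0.17 and to -0.26, so relative to that median miR-129-5p stayed higher.

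miR-138-5p had normalized counts of 1880, 2125 and 2423 in the sham libraries and of 1769, 1313 and 1637 in the CCI-ION libraries. The groups were separate by a small margin, between 1769 and 1880. The means were 2143 ± 272 and 1573 ± 235, with a log2 fold change of -0.45, a standard error of 0.17 and a limma adjusted p of 0.142. In all 16 alternatives, some of which cannot change the fold change, it was negative and the limma adjusted p lay above the threshold.

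miR-137-3p, the least abundant guide, had normalized counts of 585, 413 and 443 in the sham libraries and of 449.4, 74.3 and 233 in the CCI-ION libraries. CCI-ION replicate 1 lay within the sham range, and CCI-ION replicate 2 stood far below every other library with 61 reads, against 216 to 526 reads elsewhere. The log2 fold change was -1.26 with a standard error of 0.66 and a limma adjusted p of 0.226. Without CCI-ION replicate 2 it was -0.55, so that library carried more of the mean difference than either other CCI-ION library. miR-137-3p also had the lowest GC content among the 4 guides with a sequence, which leave out miR-124-3p. The GC class it belongs to (miRNAs at or below 40.9%) had a median log2 fold change of -0.14, against -0.04, 0.05 and 0.02 in the classes of rising GC. With values centred within the 4 GC classes, an alternative chosen after the data were seen, miR-137-3p had a log2 fold change of -1.04.

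**Figure D2:**
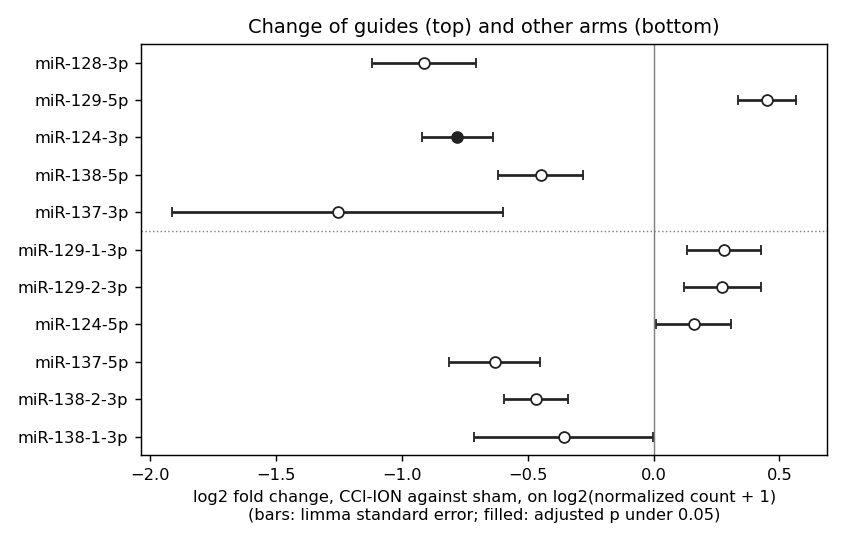
Log2 fold change of each member, CCI-ION against sham, on log2(normalized count + 1), with limma standard errors as bars. The filled point, miR-124-3p at -0.78, is the member past the threshold, and miR-137-3p has the widest standard error, 0.66.

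By level, the guides ran in the order miR-128-3p, miR-129-5p, miR-124-3p, miR-138-5p, miR-137-3p in all 3 sham libraries and in CCI-ION replicate 1. In CCI-ION replicates 2 and 3, miR-129-5p stood above miR-128-3p. Thus miR-128-3p and miR-129-5p were neighbours that did not differ beyond their spread in CCI-ION rats, at 258095 ± 31996 and 283191 ± 25777, whereas in sham rats every library had more miR-128-3p. The other neighbours in the order were separated in every library. The order is one of reads, since small RNA libraries do not capture all sequences equally well. The members with a sequence are 19 to 23 bases long, so no length scaling was used.

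Ratios of 2 guides within a library do not depend on the scaling of libraries, and all 10 pairs of guides were compared. The groups did not overlap for 5 pairs: all 4 pairs that include miR-129-5p, and the pair of miR-124-3p and miR-138-5p. The log2 ratio of miR-128-3p to miR-129-5p was 0.87, 1.19 and 1.61 in the sham libraries and 0.03, -0.16 and -0.28 in the CCI-ION libraries. Its mean went from 1.22 ± 0.37 to -0.14 ± 0.15, a difference of -1.36, with exact permutation p = 0.1, the smallest possible here, and between -1.54 and -1.17 when any 1 library was left out. A read of miR-128-3p was thus more frequent than one of miR-129-5p in every sham library and within 0.28 of equal frequency on the log2 scale in every CCI-ION library.

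The log2 ratio of miR-129-5p to miR-124-3p was 1.86, 1.54 and 1.49 in the sham libraries and 2.64, 3.09 and 2.87 in the CCI-ION libraries, a difference of 1.23 with exact permutation p = 0.1. The corresponding differences were 0.90 for miR-129-5p against miR-138-5p and 1.71 against miR-137-3p, the latter between 0.93 and 2.33 when 1 library was left out. For the guides miR-128-3p and miR-124-3p, both with lower means in CCI-ION rats, the log2 ratio was 2.74, 2.73 and 3.10 in the sham libraries and 2.66, 2.92 and 2.59 in the CCI-ION libraries. The groups overlapped there, and the difference was -0.13 with exact permutation p = 0.5. miR-124-3p against miR-138-5p differed by -0.33 without overlap (exact permutation p = 0.1), and miR-128-3p against miR-138-5p by -0.46 with overlap (exact permutation p = 0.2). The 3 remaining pairs all included miR-137-3p and overlapped, with exact permutation p from 0.4 to 0.9. With Benjamini-Hochberg adjustment over the 10 pairs, the exact permutation p of the 5 separate pairs became 0.2, and the design could not reach 0.05. The pairs share guides and are not independent of each other.

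**Figure D3:**
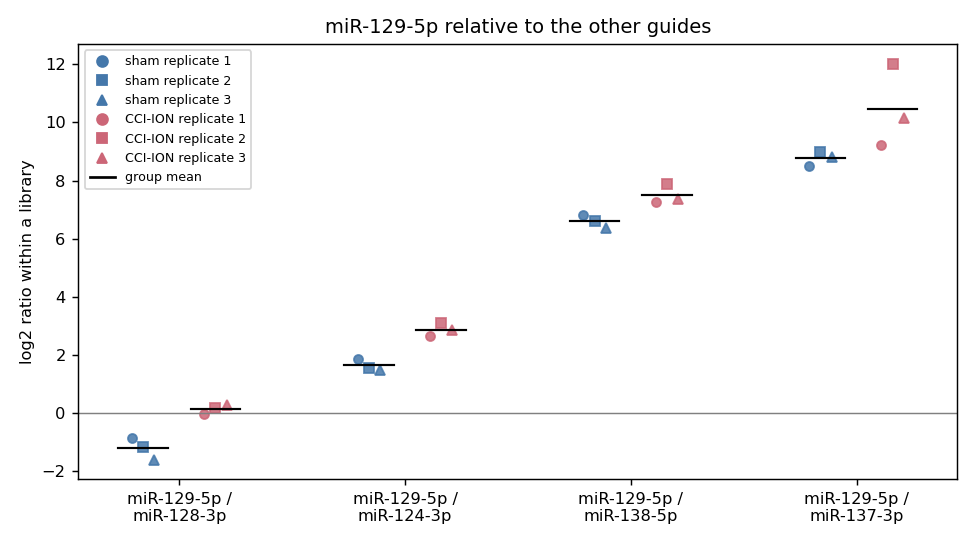
Log2 ratio of miR-129-5p to each other guide within each library (points are libraries, bars group means). In all 4 ratios the 3 CCI-ION libraries lie above the 3 sham libraries, and for miR-128-3p the group mean goes from below 0 in sham rats to 0.14 above it in CCI-ION rats.

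Together the 5 guides took 5.20%, 6.68% and 7.34% of the reads in the sham libraries and 5.59%, 6.0% and 5.11% in the CCI-ION libraries. The groups overlapped, with means of 6.41% ± 1.1 and 5.57% ± 0.444 and an exact permutation p of 0.3. This share is mostly that of miR-128-3p and miR-129-5p, whose shares moved in opposite directions: miR-129-5p went from a mean of 1.72% to 2.71%. The share of each library also depends on miR-7a-5p, the most abundant miRNA by its mean over the 6 libraries. As a share of reads outside miR-7a-5p, the guides took 7.99% ± 1.09 in sham and 6.28% ± 0.326 in CCI-ION libraries, without overlap (exact permutation p = 0.1). Leaving out miR-7a-5p raised the share more in every sham library than in any CCI-ION library. It thus took a larger part of the sham reads, which bears on every share of all reads, that of miR-129-5p included.

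The other arms, or passenger strands, are normally degraded after the guide is loaded, and of these 6 members none passed the threshold by limma adjusted p, 2 had an unadjusted p under 0.05, and 2 did not overlap between the groups. These counts are near or below the background of 40.7% without overlap and of 183 of 555 with an unadjusted p under 0.05. miR-124-5p had normalized counts of 895, 1105 and 1156 in the sham libraries and 1195, 1058 and 1261 in the CCI-ION libraries. Its groups overlapped, the means were 1052 ± 138.2 and 1171 ± 103, and the log2 fold change of 0.16 (standard error 0.15, limma adjusted p = 0.476) turned to -0.09 with upper-quartile scaling. The partner of the guide that fell was thus not lower in these libraries as deposited.

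The 3p arms of miR-129 followed one another closely. miR-129-1-3p had means of 7025 ± 309 and 8592 ± 1288, and miR-129-2-3p of 6169 ± 300 and 7513 ± 1187. In both, CCI-ION replicates 1 and 2 lay above all sham libraries and CCI-ION replicate 3 lay among them, with log2 fold changes of 0.28 and 0.27 and limma adjusted p of 0.226 and 0.249. Their read ratio lay between 1.13 and 1.15 in all 6 libraries, and since one sequence is contained in the other, the entries are not independent measurements. The 3p arms of the miR-138 copies, whose sequences differ, had a read ratio from 0.562 to 1.09.

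miR-137-5p had normalized counts of 190, 215 and 196 in the sham libraries and 159, 127.9 and 104 in the CCI-ION libraries, with no overlap. Its log2 fold change was -0.63 with a standard error of 0.18 and a limma adjusted p of 0.0878. miR-138-2-3p went from 118 ± 11.9 to 84.7 ± 5.85, also with no overlap, with a log2 fold change of -0.47 and a limma adjusted p of 0.0834. miR-138-1-3p, at 94.8 ± 27.8 and 75.1 ± 26.6, overlapped, and its limma adjusted p was 0.499. At 43 to 258 reads per library, counting error alone was up to 15.2% for these 3 arms, so small differences were not detectable at this depth.

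The arm ratio, log2 of 5p over 3p within a library with copies summed, compares the arms of 1 hairpin and is free of library scaling apart from the pseudocount. Over the 207 hairpins tested with limma, 9.66% passed the adjusted threshold and 41.5% did not overlap between the groups. Of the 5 member hairpins, 1 passed (miR-124) and 2 did not overlap (miR-124 and miR-128). miR-124-3p outnumbered miR-124-5p by 65.0, 64.4 and 61.8 times in the sham libraries and by 36.2, 34.8 and 29.1 times in the CCI-ION libraries. The replicates of each group lay close together and far from the other group. The log2 ratio of 5p to 3p was 0.94 higher in CCI-ION rats, with a standard error of 0.14 and a limma adjusted p of 0.0175, eighth by p of the 207 hairpins.

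Leaving out any CCI-ION library kept the arm ratio of miR-124 past the threshold, with differences from 0.85 to 1.00. Leaving out any sham library did not: limma adjusted p was 0.0874 without replicate 1, 0.0777 without replicate 2 and 0.103 without replicate 3, at differences from 0.93 to 0.96. The mean over libraries of the ratio of miR-124-3p to miR-124-5p was 63.7 in sham and 33.4 in CCI-ION rats, with the guide lower in every CCI-ION library and the groups overlapping for the other arm.

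miR-128-3p exceeded the summed normalized counts of miR-128-1-5p and miR-128-2-5p, with the pseudocount added to both arms, by 6675, 7690 and 6893 times in the sham libraries and by 4740, 5618 and 4036 times in the CCI-ION libraries. The groups did not overlap, and the log2 ratio of 5p to 3p differed by 0.57 (standard error 0.17, limma adjusted p = 0.0915). These 5p arms are rare, with 16 to 59 reads each in a library, so their ratio is set by few reads. For miR-129 the guide exceeded the 3p arms by 15.0 to 16.7 times in the sham libraries and by 16.4 to 19.8 times in the CCI-ION libraries, with overlap and a limma adjusted p of 0.419. Guide and other arm of miR-129 thus had the same sign of difference between the groups.

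In miR-137 the guide exceeded its 5p arm by 3.07, 1.92 and 2.26 times in the sham libraries and by 2.81, 0.584 and 2.22 times in the CCI-ION libraries. CCI-ION replicate 2 was the single library in which the 5p arm was the more frequent, and without it the log2 difference of 0.63 became -0.07. The arm ratio of miR-138 was 9.61 to 10.6 in the sham libraries and 7.88 to 13.02 in the CCI-ION libraries, a log2 difference of -0.03 with a limma adjusted p of 0.962.

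**Figure D4:**
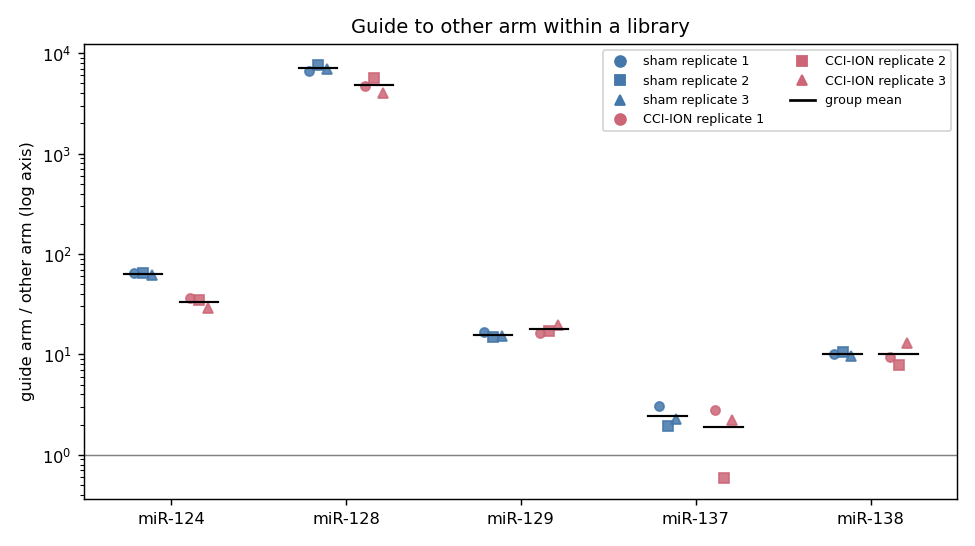
Ratio of the guide arm to the other arm of each hairpin within each library (log axis; points are libraries, bars arithmetic group means, the grey line equal arms). The miR-124 ratio is 61.8 to 65.0 in the sham libraries and 29.1 to 36.2 in the CCI-ION libraries, and the miR-137 ratio of CCI-ION replicate 2 is 0.584.

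For each guide, the miRNAs nearest in pattern were those with the smallest root mean square distance of centred log2 values over the 6 libraries, among 363 miRNAs with a mean of at least 100. For miR-128-3p these were miR-124-3p, at a distance of 0.17, and miR-34a-5p, at 0.19. For miR-129-5p they were miR-100-5p at 0.03 and miR-99b-5p at 0.06, with log2 fold changes of 0.49 and 0.41. For miR-124-3p they were miR-218a-5p at 0.11 and miR-496-3p at 0.13. miR-138-5p lay nearest to miR-16-5p at 0.09 and miR-495 at 0.11, and miR-137-3p to miR-384-3p at 0.31 and miR-9a-3p at 0.38. The miR-137-3p distances were the largest of these, and the median distance over all miRNAs compared was 1.03 for miR-137-3p and between 0.33 and 0.55 for the other guides. Each likeness rests on 6 libraries in 2 groups and is a description.

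Other miRNAs known from neurons were taken as a list of 22, all tested. Of these, 1 passed the threshold and was lower and 0 passed as higher, where 3.42% of all miRNAs tested were called lower. The groups did not overlap for 8 as lower and 2 as higher. Over all miRNAs tested, 21.3% did not overlap as lower and 19.5% as higher, so by count the list leaned to lower values. Many of its entries are not independent, since they come from 1 locus, Dlk1-Dio3. Among the 8 lower these are miR-382-5p, miR-433-3p, miR-485-5p, miR-487b-3p, miR-495 and miR-543-3p, and among the 2 higher miR-410-3p. The median log2 fold change of the list was -0.16. Its summed normalized counts were 2483220 to 2636780 in the sham and 2084510 to 2473100 in the CCI-ION libraries, lower without overlap by a small margin. This depended on the scaling. As a share of reads the list was lowest in sham replicate 1, at 19.5%, and highest in CCI-ION replicate 1, at 23.5%. The one that fell was miR-218a-5p, a miRNA of motor and other neurons, from 123862 ± 5166 to 65077 ± 6057 (log2 fold change -0.93, limma adjusted p = 0.0190). The most abundant, miR-9a-5p, a neural progenitor and neuronal miRNA, was 1392230 ± 55332 and 1247800 ± 168367 with overlap and a log2 fold change of -0.17 (limma adjusted p = 0.423). For comparison, the log2 fold changes of this list ran from -1.09 to 0.30, a range that holds those of the members miR-124-3p and miR-128-3p but not those of miR-129-5p and miR-137-3p.

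Markers of other cells that ARC tissue can hold were measured in the same libraries. Of 4 oligodendrocyte miRNAs 1 fell past the threshold, miR-338-3p, from 516 to 214 (log2 fold change -1.27, limma adjusted p = 0.0190). Over all miRNAs tested, 3.42% were called lower. The groups did not overlap for 3 of the 4, all lower, where 21.3% of all miRNAs were lower without overlap. The log2 fold changes of the 4 ran from -2.28 to -0.55. The -2.28 is that of miR-219a-5p, which lay near the floor, and the other 3 ran from -1.27 to -0.55. Their summed normalized counts were 13685 to 19928 in the sham and 10471 to 11304 in the CCI-ION libraries. In this list miR-219a-5p was listed at 0 in all 3 CCI-ION libraries and in sham replicate 2. The most abundant of them was miR-219a-2-3p, at 10610 and 7128. Of 5 vessel wall and endothelial miRNAs 2 rose past the threshold, where 19 of the 555 miRNAs tested passed it as higher. They were miR-143-3p, from 40277 to 86140 (log2 fold change 1.11, limma adjusted p = 0.0334), and miR-145-5p, from 2724 to 4847 (0.85, adjusted p = 0.0450). In the same list miR-126a-5p lay lower without overlap, at 876 and 501 (log2 fold change -0.91, limma adjusted p = 0.205), and miR-126a-3p lay higher without overlap. The other arm of miR-145, miR-145-3p, overlapped at 595 and 646 (log2 fold change 0.12, limma adjusted p = 0.557). The summed normalized counts of the 5 went from between 80823 and 106598 in the sham to between 152114 and 166065 in the CCI-ION libraries. Both sums did not overlap between the groups, the oligodendrocyte sum being lower and the vessel wall sum higher in the CCI-ION libraries. Non-overlap was also found for 40.7% of all single miRNAs tested. The part of this difference in cell markers in the member results was not tested.

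Among the other marker lists, 0 passed the threshold by limma and the summed normalized counts overlapped. They lay between 8664 and 11380 for 6 microglial and immune miRNAs, of which 2 had an unadjusted p under 0.05, and between 2837 and 3798 for the 3 of 4 erythrocyte miRNAs that are listed, of which 1 did. For 6 miRNAs of pituitary and epithelium the sums were 10541 to 15566 in the sham and 13061 to 30452 in the CCI-ION libraries. Their log2 fold changes ran from 0.57 to 0.94, and 2 had an unadjusted limma p under 0.05. For 4 of choroid plexus and ependyma the sums were 63746 to 87470 in the sham and 82374 to 105063 in the CCI-ION libraries. Their log2 fold changes ran from 0.05 to 0.57, and 1 had an unadjusted limma p under 0.05. Skeletal muscle markers were near the floor, with sums from 98.3 to 158 over 4 miRNAs and 0 at an unadjusted p under 0.05. The most abundant of each list, in sham and CCI-ION means, were miR-146a-5p at 7220 and 7017, miR-486 at 3076 and 2904, miR-200b-3p at 4335 and 8682, miR-204-5p at 61076 and 75761, and miR-133a-3p at 66.9 and 71.3.

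Across the alternative scalings, filters and left-out libraries, the direction of each guide was the same. miR-128-3p, miR-138-5p and miR-137-3p were lower in all 16 alternatives and miR-124-3p in the 15 that could include it, while miR-129-5p was higher in all 16. The intensity trend, the filters and the replicate block leave the fold change unchanged, and a pseudocount of 0.1 hardly moves it. A direction could therefore turn only with the scalings, the left-out libraries and the GC centring. The side of the threshold was less stable: miR-124-3p passed in 7 of its 15 alternatives, miR-128-3p and miR-129-5p in 4 of 16 each, and miR-138-5p and miR-137-3p in 0. Limma adjusted p ranged from 0.0105 to 0.148 for miR-124-3p, from 0.0160 to 0.165 for miR-128-3p and from 0.0230 to 0.222 for miR-129-5p.

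**Figure D5:**
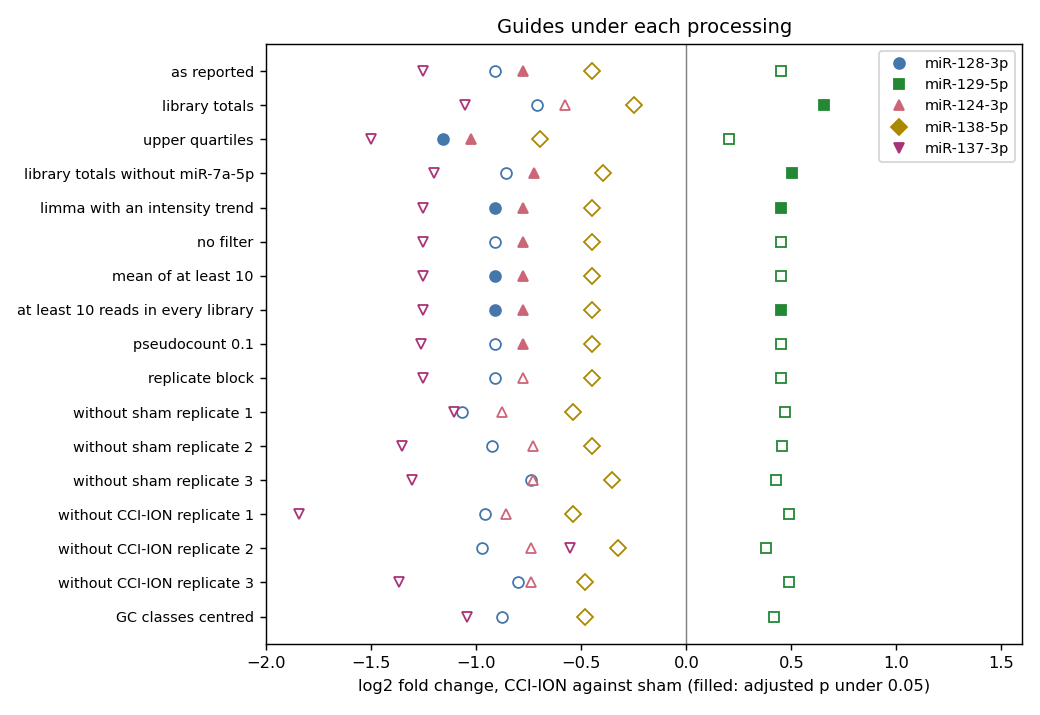
Log2 fold change (CCI-ION against sham) of the 5 guides as reported and under each alternative, with filled symbols where the limma adjusted p is under 0.05. No guide crosses 0; miR-124-3p has no point with GC classes centred, and miR-137-3p moves most, from -1.84 to -0.55.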

How the data were processed

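RNA of the ARC was sequenced as microRNA libraries, 3 sham and 3 CCI-ION, assigned to groups by the sample labels. The authors deposited, for each library, a signal value per mature miRNA. Per the file contents these are read counts over a library size factor: each value is a whole multiple of 1 step per library (100% of values within 0.05 of a whole number). The submitters' processing notes name cutadapt 1.14, Bowtie 1.1.1 and the build rn6. The counting, annotation and normalization are not given in the sources used here. Because the deposited signal is normalized, no count model was used.

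From these values, miRNAs with a mean of at least 1 were compared on log2(normalized count + 1) with limma 3.58.1 (R 4.3.3), two-sided, with Benjamini-Hochberg adjustment and no covariate. The fits were tested on simulated data. The size factors ranged from 0.821 to 1.20, and replicate libraries differed by more than sampling noise. Arm ratios used the same test, and single values used exact permutation tests. Sequences came from RefSeq (GRCr8), whose coordinates served only to find which genes overlap the hairpins and are not printed since the build differs. Counting errors cover counting only.

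The members and lists were chosen with earlier results of these data known. Named miRNAs were all rows taken by the rule, the 2 nearest in pattern to each guide, and, from each list, those past the threshold and the most abundant. Further list members were named where their values limit how a list can be read. Alternatives were library totals, upper quartiles and totals without miR-7a-5p as scaling, an intensity trend, a pseudocount of 0.1, other filters (none, 10 reads or more per library, a mean of 10 or more), a threshold of 0.1, a replicate block and leaving out each library. Centring within 4 classes of GC content, and leaving out libraries for the guide ratios, were added after the data were seen.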

Additional observations from a re-analysis of the deposited data

How the results depend on the processing

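The count of all miRNAs past the threshold, 38 here, was 94 with upper quartiles (10 higher, 84 lower), 88 with an intensity trend, 63 with a mean of at least 10, 96 with at least 10 reads in every library, 100 at a threshold of 0.1, 18 with GC classes centred, and 7 to 42 when 1 library was left out. With library totals it was 51 (42 higher, 9 lower) and without miR-7a-5p in the totals 49 (30 higher, 19 lower). In the same order the count of members, 1 here, was 4, 3, 2, 5, 5 and 0, and 0 without any 1 library. Centring by GC leaves out miR-124-3p, the 1 member past the threshold, and tests 9 members, so its 0 says nothing about that call. The count was 2 without miR-7a-5p in the totals, and with library totals the 1 member was miR-129-5p in place of miR-124-3p. Of the other neuronal miRNAs, 5 passed with upper quartiles, 4 with the trend, 2 with a mean of at least 10, 4 with at least 10 reads, 3 at a threshold of 0.1, and 0 to 2 without 1 library. Hairpins with a changed arm ratio, 20 here, were 32 with a mean of at least 10, 35 with at least 10 reads and 3 to 22 without 1 library. A higher filter tests fewer miRNAs, and leaving out a library leaves fewer samples. Both higher filters also lowered the unadjusted limma p of every member, while the fold changes stayed the same. For miR-128-3p this p was 0.0054 as reported, 0.0032 under the mean filter of 10 and 0.0020 under the filter of 10 reads. The cause of the shifts in these counts was not tested for any alternative. The summed share of the guides differed by -0.84 percentage points, by -1.71 outside miR-7a-5p and by -1.44 to -0.37 without 1 library. Of the 10 guide ratios, 5 did not overlap, and 5 to 7 did not without 1 library.

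With the replicate number as a block, 3 miRNAs, 0 members, 0 other neuronal miRNAs and 0 hairpins passed the threshold; miR-124-3p had an adjusted p of 0.136 and its arm ratio 0.0887 by limma. Deviations of same-numbered libraries correlated at -0.09, 0.30 and -0.18 over 489 miRNAs, so the numbers were not taken to pair the libraries.

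The sign turned for miR-124-5p with upper quartiles (-0.087). The arm ratio of miR-137 ran from -0.073 to 1.06 over the left-out libraries and turned without CCI-ION replicate 2. That of miR-138 ran from -0.23 to 0.13 and turned without sham replicate 2 (0.0083), without CCI-ION replicate 1 (0.0084) and without CCI-ION replicate 2 (0.13). TMM scaling, which needs edgeR, and the count tests of edgeR and DESeq2 were not run, because the deposited values are normalized and the sources used here do not state what 1 read is worth in them. With 3 libraries per group, differences near the spread between libraries were not detectable.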
